A study of Mus musculus with 6 samples.

Results

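The genes examined here make, package, take up or sense dopamine, or set the identity of the midbrain neurons that use it. They are Th, Ddc, Gch1, Slc18a2, Slc6a3, Drd2, Nr4a2, Pitx3, Satb1 and Ret, 10 genes in all. Every probe set (a group of short array probes read out as 1 value) whose annotation names exactly 1 of these genes was taken, which gave 22 of the 45101 probe sets on the array. No probe set naming several genes included any of them. The arrays compared the floor plate, the ventral midline strip of the midbrain, with the ventral lateral region next to it in C57BL/6 mouse embryos of mixed sex at embryonic day 10.5. There were 3 samples per region, each made from 6 pooled embryos, with 5 ng of total RNA amplified per sample, and no mutation or treatment was involved. The labels do not say whether pools of the 2 regions shared embryos, so the main fit did not pair them. Its p-values set the difference between regions against the spread between these pools only. Results with the replicate number as a block are given below.

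Dopaminergic neurons of the midbrain arise from floor plate progenitors, and they become neurons by leaving the cell cycle and switching on a set of transcription factors and then the machinery of their transmitter. Tyrosine hydroxylase, the product of Th, turns tyrosine into L-DOPA with a pterin cofactor whose synthesis starts with the enzyme encoded by Gch1. Aromatic L-amino acid decarboxylase, encoded by Ddc, turns L-DOPA into dopamine. The vesicular transporter encoded by Slc18a2 loads dopamine into vesicles, and the transporter encoded by Slc6a3 takes it back up from outside the cell. Several of these genes are not private to dopaminergic neurons, since Ddc, Gch1 and Slc18a2 also serve serotonin neurons.

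The promoters of 3 of these genes are shown first, because they carry the letters of known response elements close to the transcription start. Their values in the 2 regions are given below, where Slc18a2 missed the threshold and not every Ddc probe set passed. Any part of these sites in those values was not tested. The sequences are from RefSeq (GRCm38.p6) and run 5′ to 3′ on the strand of the gene. Capitals mark the octamer TGACGTCA, the cAMP response element, in Th and Slc18a2. In Ddc they mark TGACCTTT, the reverse complement of AAAGGTCA, the element that Nr4a family receptors bind as monomers.

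Th, minus strand, chr7:142899996-142900095: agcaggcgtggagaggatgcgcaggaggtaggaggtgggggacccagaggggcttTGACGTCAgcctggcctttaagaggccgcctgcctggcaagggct

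Slc18a2, plus strand, chr19:59260778-59260881: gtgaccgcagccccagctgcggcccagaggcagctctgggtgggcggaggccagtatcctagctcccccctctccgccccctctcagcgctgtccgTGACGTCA

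Ddc, upstream RefSeq start, minus strand, chr11:11898145-11898244: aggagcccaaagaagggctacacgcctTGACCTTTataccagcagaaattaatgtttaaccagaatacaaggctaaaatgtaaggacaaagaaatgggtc

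The cAMP element lay at positions -45 to -38 from the start in Th, and at -4 to 4 across the start in Slc18a2, with no position 0. Windows of 300 bases, 250 before and 50 after a start, were searched on both strands. TGACGTCA was in 1.79% of all 32851 such windows and in 2 of the 14 windows of these genes. AAAGGTCA was in 1.51% of all windows and in 1 of the 14, at -73 to -66 in Ddc, where it overlaps a TATAAA on the same strand at -68 to -63. TATAAA was found in 3 of the 14 windows (13.6% of all), in Ddc, Nr4a2 and Gch1. The homeodomain core TAATTA (5.29% of all windows), the Otx and Pitx type site TAATCC (7.06%) and the forkhead site TGTTTAC (3.65%) were in none of the 14, which says only that these letters are not in these windows. A window was found for 9 of the 10 genes.

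Values are given on the log2 scale as deposited, as the ratio of an array to the median of that probe set over all 6 arrays. Neither the base of the logarithm nor its direction is given, and base 2 with more RNA at higher values was assumed. These ratios carry no absolute level, so a gene that is silent in both regions and a gene that is equally expressed in both look alike. Each region was checked against its markers. In the floor plate list 6 of 7 genes were higher in floor plate, led by Corin, Lmx1a and Slit2. The exception, Shh, was higher by 1.76 but missed the threshold (limma adjusted p = 0.0734). In the ventral lateral list 5 of 6 were lower in floor plate, led by Gata2, Dbx1 and Pax6. The exception, Nkx6-1, lay the other way without passing (0.71, adjusted p = 0.0856). With 1 sample left out the floor plate count was 4 to 7. Without ventral lateral replicate 2, 1 gene of the ventral lateral list was higher in floor plate. The array medians lay between -0.0030 and 0.0045, and the median SE of a difference over all probe sets was 0.127.

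Th and Nr4a2 were higher in the floor plate, and no other of the 10 genes passed in that direction. Of the 22 probe sets 5 rose in floor plate, 1 for Th and 4 for Nr4a2, and 1 fell, for Ddc (limma, Benjamini-Hochberg adjusted p under 0.05 over all 45037 non-control probe sets). Over all probe sets 2.70% were higher and 2.01% lower, 4.71% in either direction. The median difference, floor plate minus ventral lateral, was -0.03 over the 22 probe sets and -0.0040 over all. Every floor plate value lay above every ventral lateral value in 7 of the 22 probe sets, against 11.5% of all, and below in 4, against 11.0%. The genes were chosen with earlier results of these arrays known, so the counts describe the genes and do not test them as a set. The count of higher probe sets was 2 without floor plate replicate 3, 2 without ventral lateral replicate 1 and 3 without ventral lateral replicate 3, and the 1 lower probe set was lost without any 1 of the samples except ventral lateral replicate 2.

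**Figure D1:**
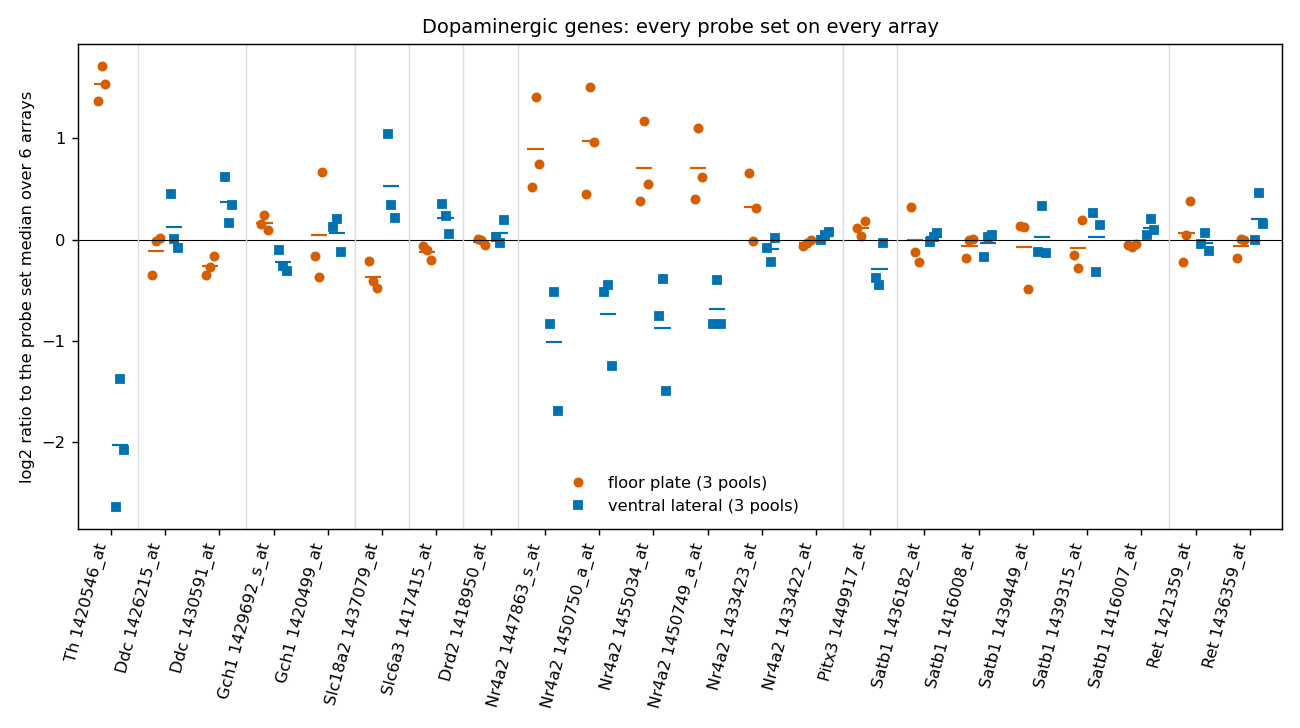
Log2 ratio to the probe set median over 6 arrays (vertical axis) for each of the 22 probe sets (horizontal axis, ordered by role), with 3 floor plate pools as circles, 3 ventral lateral pools as squares and group means as short lines. Th and 4 Nr4a2 probe sets separate widely with floor plate on top, while floor plate lies at the bottom by smaller steps in Slc18a2, in Slc6a3 and in 1 of the 2 Ddc probe sets (1430591_at).

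Among the genes of dopamine synthesis, Th stood far from the others. Its single probe set (1420546_at) was at 1.37, 1.71 and 1.54 in floor plate replicates 1, 2 and 3 and at -2.64, -1.37 and -2.08 in ventral lateral replicates 1, 2 and 3. The groups did not overlap, and the smallest gap between them, from floor plate replicate 1 to ventral lateral replicate 2, was still wider than the range within either. Th was 11.9-fold higher in floor plate (log2 difference 3.57, SE 0.29, 95% interval 2.90 to 4.24, limma adjusted p = 0.00064). It ranked 21 from the highest difference among the 45037 probe sets. The ventral lateral pools varied more (SD 0.63, n = 3) than the floor plate pools (SD 0.17, n = 3), and Th passed without any 1 of the samples, at log2 differences of 3.27 to 3.90.

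The decarboxylase gene Ddc, which acts directly after Th, had values of the opposite order. Its probe set 1430591_at was at -0.35, -0.27 and -0.16 in floor plate and at 0.62, 0.16 and 0.34 in ventral lateral replicates 1, 2 and 3. No floor plate value reached the lowest ventral lateral one. Ddc fell by 0.63 on this probe set (SE 0.13, 95% interval -0.95 to -0.32, limma adjusted p = 0.0405), a 1.55-fold difference. The other Ddc probe set (1426215_at) overlapped between regions, at -0.35, -0.01 and 0.02 against 0.45, 0.01 and -0.08, with a difference of -0.24 (95% interval -0.64 to 0.15, adjusted p = 0.566). The call on the first probe set did not hold without floor plate replicate 1, 2 or 3 (adjusted p of 0.131, 0.105 and 0.0798). Without ventral lateral replicate 1 or 3 it was lost too (0.0982 and 0.107), and it held without ventral lateral replicate 2 (0.0341). The call also failed with array weights (0.0537), with the replicate number as a block (0.0736) and on the mean of the 2 probe sets (-0.44, adjusted p = 0.115).

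Gch1 encodes GTP cyclohydrolase, the first enzyme of tetrahydrobiopterin synthesis, and its 2 probe sets did not show the same pattern. Probe set 1429692_s_at was at 0.15, 0.24 and 0.10 in floor plate and -0.10, -0.26 and -0.31 in ventral lateral, so the regions were apart, but the difference of 0.39 (95% interval 0.15 to 0.62) missed the threshold (adjusted p = 0.0854). Probe set 1420499_at had floor plate values of -0.16, -0.37 and 0.67 around ventral lateral values of 0.13, 0.21 and -0.13. Its difference was -0.02 with a 95% interval of -0.61 to 0.57, and floor plate replicate 3 was the highest of all 6 arrays. Ending in _s_at, the first of the pair may also bind other transcripts, by Affymetrix naming. The same caution applies to Nr4a2 probe set 1447863_s_at, and to the _s_at probe sets on which Dlk1 and Msx1 were read, both described below.

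None of the 3 genes for packaging, uptake and sensing of dopamine passed the threshold. Slc18a2, the vesicular monoamine transporter gene, was at -0.21, -0.41 and -0.48 in floor plate and at 1.04, 0.34 and 0.21 in ventral lateral. The groups were apart, with ventral lateral replicate 1 standing well above its 2 companions. The difference was -0.90 (SE 0.21, 95% interval -1.39 to -0.40), and it missed the threshold (limma adjusted p = 0.0627). It passed with 1 value per gene, by largest variance (0.0439) or by the mean (0.0378), and after quantile normalization (0.0452). With the replicate number as a block it also passed (0.0273). Whichever 1 sample was left out, it missed the threshold (adjusted p of 0.0562 to 0.174). It also missed it with array weights (0.0638) and with robust eBayes (0.0676), so Slc18a2 lies at the edge of this test. Without ventral lateral replicate 1 the difference was -0.64.

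Slc6a3, the dopamine transporter gene, repeated that order on a smaller scale, at -0.06, -0.11 and -0.20 in floor plate and 0.35, 0.23 and 0.06 in ventral lateral. Its difference of -0.34 (95% interval -0.59 to -0.09) did not pass (adjusted p = 0.158). Drd2, encoding the D2 receptor that also acts as an autoreceptor on dopaminergic neurons, overlapped between regions, at 0.01, -0.01 and -0.05 against 0.03, -0.03 and 0.20. Its difference was -0.08 with a 95% interval of -0.31 to 0.15. A transcript below the detection range of the probes would give the same result.

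**Figure D2:**
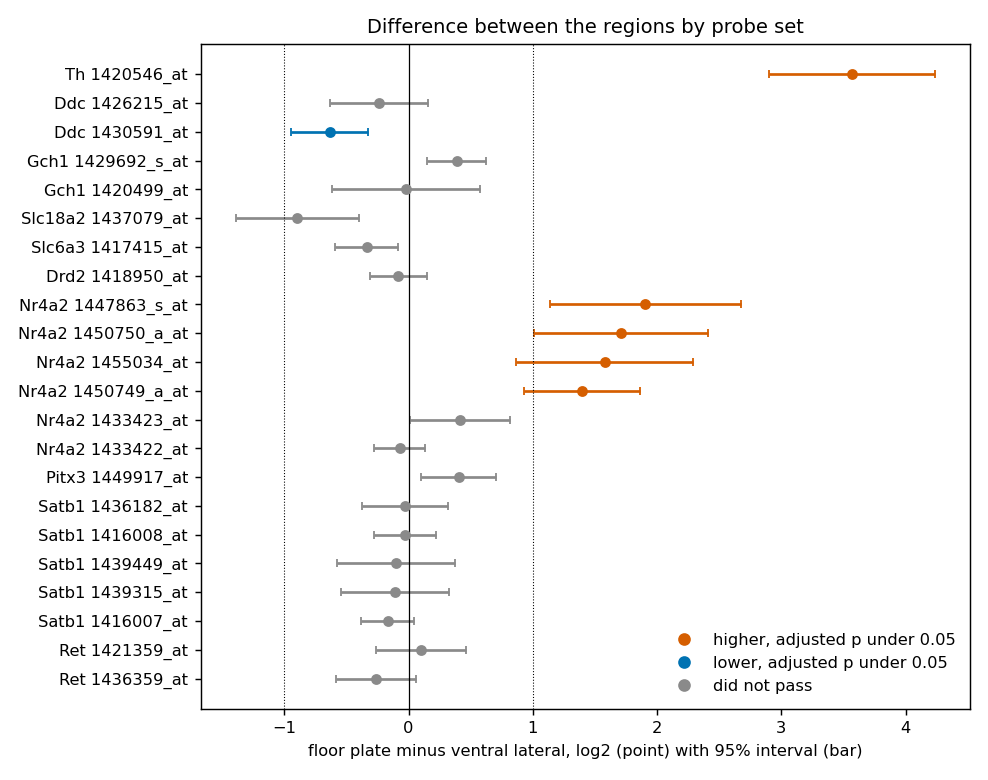
Floor plate minus ventral lateral difference on the log2 scale (horizontal axis, points) with the 95% interval of the limma fit (bars) for each probe set (vertical axis); dotted lines mark a 2-fold difference in either direction. Th lies at 3.57 and the 4 higher Nr4a2 probe sets at 1.40 to 1.90, and 15 of the 16 probe sets that did not pass have intervals inside the dotted lines.

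Nr4a2 encodes the nuclear receptor Nurr1, which newborn dopaminergic neurons need in order to acquire their transmitter genes, and 4 of its 6 probe sets rose in floor plate. Probe set 1447863_s_at was at 0.52, 1.40 and 0.75 in floor plate and at -0.83, -0.52 and -1.69 in ventral lateral, a 3.74-fold difference (log2 1.90, SE 0.33, limma adjusted p = 0.0181). Probe set 1450750_a_at was at 0.45, 1.51 and 0.97 against -0.51, -0.45 and -1.25, a log2 difference of 1.71 (SE 0.30, adjusted p = 0.0193). Both had floor plate replicate 2 as the highest array and ventral lateral replicate 3 as the lowest. Probe set 1455034_at was at 0.38, 1.18 and 0.55 against -0.75, -0.38 and -1.49, a log2 difference of 1.58 (SE 0.31, adjusted p = 0.0285). Probe set 1450749_a_at was at 0.40, 1.10 and 0.62 against -0.83, -0.40 and -0.84, a log2 difference of 1.40 (SE 0.20, adjusted p = 0.00815). These probe sets read the same gene on the same arrays and are not separate evidence.

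Averaged over those 4 probe sets, the arrays stood at 0.44, 1.30 and 0.72 in floor plate replicates 1, 2 and 3 and at -0.73, -0.44 and -1.32 in ventral lateral replicates 1, 2 and 3. Floor plate replicate 2 was the highest array for Nr4a2 and for Th alike, whereas the lowest array was ventral lateral replicate 3 for Nr4a2 and replicate 1 for Th. The 2 remaining Nr4a2 probe sets did not follow. Probe set 1433423_at was at 0.66, -0.02 and 0.32 against -0.08, -0.22 and 0.02 (difference 0.42, 95% interval 0.01 to 0.82, adjusted p = 0.286). Probe set 1433422_at stayed between -0.07 and 0.08 on every array (difference -0.07, 95% interval -0.28 to 0.13), and these deposited values do not say whether it detects the transcript at all. Of the 4 higher probe sets only 1450749_a_at passed without any 1 of the samples (adjusted p of 0.01 to 0.0397). It was the only Nr4a2 probe set to pass when floor plate replicate 3, or ventral lateral replicate 1, was left out, and without ventral lateral replicate 3 it passed together with 1447863_s_at.

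**Figure D3:**
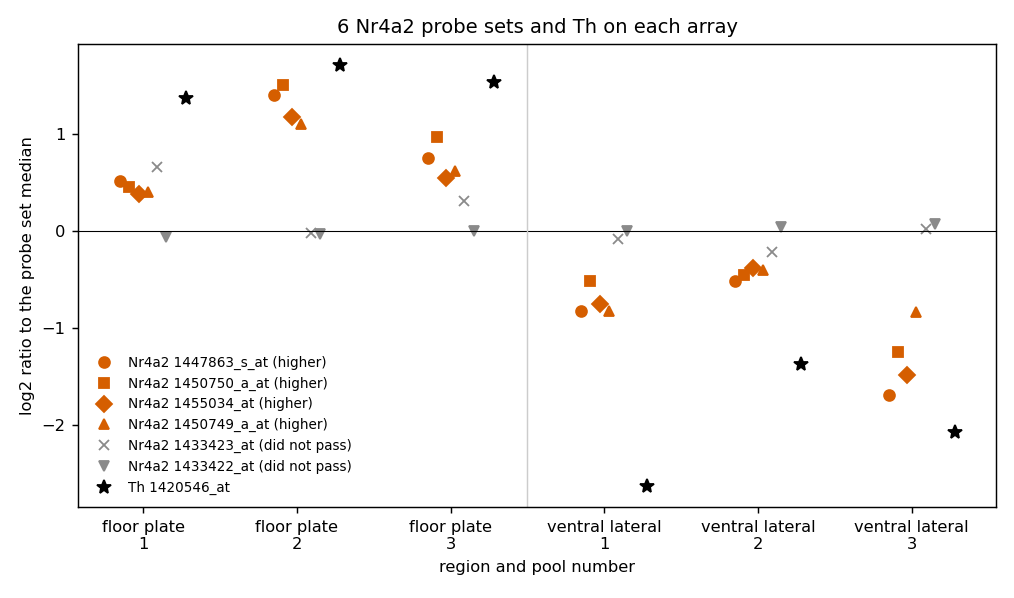
Log2 ratio to the probe set median (vertical axis) of the 6 Nr4a2 probe sets and of Th on each of the 6 arrays (horizontal axis, region and pool number). The 4 higher probe sets (filled orange) lie between 0.38 and 1.51 in floor plate and between -1.69 and -0.38 in ventral lateral arrays, while the grey pair stays between -0.22 and 0.66.

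Pitx3, a homeobox gene needed for the survival of a large part of the midbrain dopaminergic neurons, was at 0.12, 0.04 and 0.19 in floor plate and at -0.37, -0.45 and -0.04 in ventral lateral. The groups were apart with floor plate on top, but by a narrow step between floor plate replicate 2 and ventral lateral replicate 3. The difference of 0.40 (SE 0.13, 95% interval 0.10 to 0.70) did not pass (adjusted p = 0.158). The upper bound lies below the difference of Th and below those of the 4 higher Nr4a2 probe sets.

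Satb1, encoding a chromatin-organising protein studied in dopaminergic neurons, had 5 probe sets and none passed. Their differences ran from -0.17 to -0.03, with adjusted p of 0.428 to 0.958. In 1416007_at the floor plate values of -0.05, -0.07 and -0.05 all lay under the ventral lateral values of 0.05, 0.20 and 0.09, and in the other 4 the regions overlapped. All 5 intervals lay within 2-fold in both directions, the widest reaching -0.57 and 0.37. Ret, the receptor tyrosine kinase for ligands of the GDNF family, had 2 probe sets with differences of 0.10 (1421359_at, 95% interval -0.26 to 0.46) and -0.26 (1436359_at, -0.58 to 0.06), and both overlapped between regions.

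Whether Th differs from the other genes in its contrast between regions was tested within arrays. On each array the value of the other gene, on its probe set of largest variance, was subtracted from that of Th. Against Ddc this gave 1.72, 1.99 and 1.70 in floor plate and -3.25, -1.53 and -2.42 in ventral lateral, a contrast of 4.21. Against Slc18a2 the contrast was 4.47, and against Nr4a2, the nearest, it was 1.67. For all 9 genes every floor plate value lay above every ventral lateral value. All 9 comparisons use the same Th values, whose groups were already far apart, so their agreement is not separate evidence. The exact permutation test, two-sided, gave p = 0.1 for each of the 9 comparisons (0.1 after Benjamini-Hochberg adjustment), the smallest p that 3 samples against 3 allow, so this test cannot pass a threshold of 0.05. Averaging the probe sets of each gene raised the contrast against Nr4a2 to 2.42, in an average that includes the 2 Nr4a2 probe sets that did not pass.

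Gene lists that surround the 10 genes were drawn up with earlier results of these data known, and each gene was read on its probe set of largest variance. By this rule 4.25% of all 18193 genes were higher and 2.97% lower, 7.22% in either direction, with a median of -0.0079. Of 6 genes that make or recycle the pterin cofactor none passed (median -0.10), and the largest value was 0.28 for Pcbd1. Of 4 dopamine receptor genes, Drd2 among them, none passed (median 0.24). Of 4 measured genes of monoamine breakdown 2 were higher and none lower (median 0.93). These were Maob, encoding monoamine oxidase B, and Aldh1a1, an aldehyde dehydrogenase gene that marks dopaminergic progenitors.

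Maob was at 0.65, 0.46 and 0.78 in floor plate and at -1.26, -1.44 and -0.46 in ventral lateral, a 3.21-fold difference (log2 1.68, SE 0.24, limma adjusted p = 0.0080), and it passed without any 1 of the samples. The gene of the sister enzyme, Maoa, had a difference of -0.26 that did not pass (adjusted p = 0.357). Aldh1a1 rose by a log2 difference of 5.20 (SE 0.91, adjusted p = 0.0188), but its ventral lateral values were -4.90, -1.26 and -5.07, and without any 1 sample other than ventral lateral replicate 2 it missed the threshold (adjusted p of 0.0516 to 0.0831). Without ventral lateral replicate 2 the difference was 6.44.

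Genes of other monoamine neurons were examined because they share Ddc, Slc18a2 and Gch1. Of 9 genes that make or carry other monoamines 1 rose and none fell (median 0.11). This was Dbh, which encodes the enzyme that turns dopamine into noradrenaline, at 0.92, 0.33 and 0.58 in floor plate and -0.33, -0.40 and -0.34 in ventral lateral (log2 difference 0.97, SE 0.15, limma adjusted p = 0.0116). Its 2 other probe sets had differences of 0.39 to 0.60 and did not pass. The serotonin genes Tph2 (0.11) and Slc6a4 (0.04) did not pass. Hdc, the histidine decarboxylase gene related to Ddc, had a difference of -0.82 that just missed (adjusted p = 0.0565). In the serotonergic marker list 3 of 6 genes were lower and Lmx1b was higher, the lower ones being Gata2, Gata3 and Nkx2-2, which GABAergic neurons and ventral progenitors express as well. In the noradrenergic and sympathetic list 1 of 5 was higher, again Dbh, and 2 on leaving out ventral lateral replicate 2. The part of these cells in the values of Ddc, Slc18a2 and Gch1 was not tested.

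The partners of Ret were unevenly placed. Of 8 genes for GDNF family ligands and co-receptors 1 rose and 1 fell (median -0.09). Gdnf, the ligand gene, was at 1.09, 0.50 and 0.98 in floor plate and at -0.50, -0.52 and -1.30 in ventral lateral, a 3.10-fold difference (log2 1.63, SE 0.25, limma adjusted p = 0.0098). The call was lost when floor plate replicate 1 was left out (adjusted p = 0.0522). Gfra2, a co-receptor gene, fell by 0.63 (SE 0.13, adjusted p = 0.0382), but none of its 4 other probe sets did (-0.28 to 0.17), and without ventral lateral replicate 3 alone among the 6 left-out samples it still passed (adjusted p = 0.0247, otherwise 0.0837 to 0.125). Gfra1, the main co-receptor for Gdnf, had a difference of 0.65 that did not pass (adjusted p = 0.0914). In this list 2 genes were higher on leaving out ventral lateral replicate 2. Close relatives of the 10 genes did not pass either, 0 of 8, except that 1 was lower on leaving out ventral lateral replicate 3, and they include Nr4a1 (-0.16) and Nr4a3 (0.996, adjusted p = 0.0798).

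Of 12 dopaminergic progenitor factors 8 were higher and none lower (median 2.56), and the count was 5 without floor plate replicate 1. At the top were Corin (6.36), Lmx1b (3.72), Lmx1a (3.71) and Msx1 (3.53). Corin, Lmx1a, Foxa1 and Foxa2 were also among the higher genes of the floor plate marker list above, so the counts of these lists are not separate evidence. On the mean of probe sets the difference was 2.23 for Lmx1b and 1.99 for Msx1, and the other Msx1 probe set (0.44) did not pass. Of 23 other genes of dopaminergic neurons 4 were higher and 4 lower (median -0.27). The higher ones were Aldh1a1, the transcription factor gene Sox6 (1.45, adjusted p = 0.00124), the neuropeptide gene Cck (0.85) and the zinc finger gene Bnc2 (0.70). The lower genes were the calcium-binding protein gene Calb1 (-3.25), the imprinted Notch ligand family gene Dlk1 (-2.98), the gamma-synuclein gene Sncg (-1.59) and Pbx3 (-0.56). Pbx3 missed the threshold whichever 1 sample was left out (limma adjusted p of 0.0568 to 0.119), and its other probe set (-0.43) did not pass. Calb1 fell by 1.13 on the mean of its 4 probe sets. All 4 lower genes are also active in other neurons, and any part of those neurons in these values was not tested. Leaving out 1 sample changed the count of higher genes to between 1 and 3 and that of lower genes to 3, with the count of higher genes at 1 without floor plate replicate 2.

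**Figure D4:**
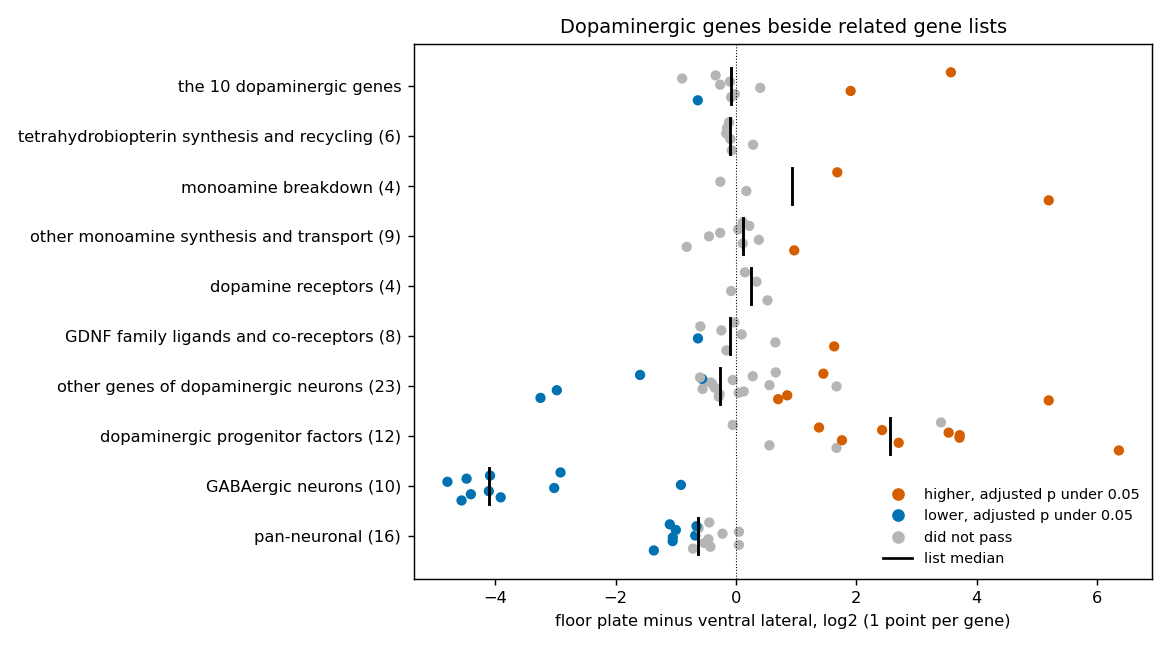
Floor plate minus ventral lateral difference on the log2 scale (horizontal axis) for each gene of 10 lists (vertical axis, number of genes measured in brackets), 1 point per gene with the list median as a black bar. The 10 dopaminergic genes spread from -0.90 to 3.57 around a median of -0.09, between the progenitor factors (median 2.56) and the GABAergic genes (median -4.10).

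Genes of other cell types were read in the same comparison. Of 16 pan-neuronal genes 7 were lower in floor plate and none higher (median -0.64). Among the lower ones were Cntn2 (-1.37), Syt1 (-1.10), Ina (-1.05) and Mapt (-1.05). None of the 3 other Syt1 probe sets was called lower (-0.85 to 0.09), and the mean of its probe sets did not pass (-0.54, limma adjusted p = 0.0735). The pan-neuronal genes together averaged -0.41 to -0.16 on floor plate arrays against 0.10 to 0.57 on the others. Fewer of them were lower when a sample was left out: 2 for floor plate replicate 1, 2 for floor plate replicate 3, 3 for ventral lateral replicate 1 and 4 for ventral lateral replicate 2. All 10 GABAergic genes were lower (median -4.10, list mean -2.09 to -1.71 against 1.48 to 2.25), and 9 were lower whichever 1 sample was left out. Of 10 neural progenitor genes 1 was higher and 1 lower (median 0.11). Bulk tissue cannot tell fewer cells of a type from less RNA per cell, and the part of these shifts in the values of Ddc, Slc18a2 and Slc6a3 was not tested. Of 10 oculomotor and red nucleus genes 1 was lower, Pou4f1 (-2.27), with 2 lower on leaving out ventral lateral replicate 1 and 3 higher on leaving out ventral lateral replicate 2. Blood genes (0 of 7 called) and neural crest and glial genes (0 of 3) did not pass, with 1 blood gene higher on leaving out ventral lateral replicate 2, and of 11 endothelial and mesenchymal genes Twist1 was higher (2.11) and Cldn5 lower (-0.68). The Cldn5 call was lost on leaving out floor plate replicate 1 or 3 (adjusted p of 0.0849 and 0.0807) or ventral lateral replicate 1 or 3 (0.0724 and 0.0559).

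The probe sets most like Th and most like Ddc were found by the root mean square difference over the 6 arrays, after each profile was centred on its mean, among 34923 probe sets naming 1 other gene. The nearest to Th was a probe set of Steap1, with a root mean square difference of 0.0742. It was at 1.33, 1.57 and 1.48 in floor plate and -2.59, -1.33 and -2.02 in ventral lateral. Next came Dipk2a (0.221), Lgi1 (0.225), the ciliogenesis factor gene Foxj1 (0.244) and a second probe set of Steap1 (0.245). Nearest to Ddc were Gnb3 (0.0292), Elapor1 (0.057), BC029722 (0.0584), Ptges (0.0589) and Entpd1 (0.0634). Likeness over 6 arrays is a description of these samples, and profiles of small range such as that of Ddc lie close to many others.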

How the data were processed

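Total RNA of 6 samples, 3 floor plate and 3 ventral lateral pools, was measured on Affymetrix mouse arrays. Per the submitters' processing notes the authors ran RMA (background correction, quantile normalization and probe summary), of a version not stated there. The values as deposited were taken as log2 and were centred, since the median over the 6 arrays was within 1e-05 of 0 for each of the 45101 probe sets. Background correction and a filter on dim probe sets need levels and were not run. The platform annotation of GEO named 34945 probe sets with 1 gene, 932 with several and 9160 with none; 64 control probe sets were left out.

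Differences were fitted for 45037 probe sets in limma 3.58.1 (lmFit, then eBayes; R 4.3.3), without a block, with 95% intervals from the fit, Benjamini-Hochberg adjustment over all of them and a threshold of 0.05. The fit was tested on simulated data. Gene lists used the probe set of largest variance per gene, which favours the one that differs most. Named genes were the 10 genes themselves, up to 4 genes past the threshold per list and direction, and the 5 profiles nearest to Th and to Ddc. List genes named without passing were chosen after their values were seen. The members, lists and rules were chosen with earlier results of these data known. Alternatives were quantile normalization, centring of arrays, the replicate number as a block, array weights, robust eBayes, 1 value per gene, omission of _x_at and _s_at probe sets, other thresholds and leaving out each sample. Plots and tables used Python 3.11.15, pandas 2.3.3, scipy 1.17.1 and matplotlib 3.10.9. The number of arrays limits the precision.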

Additional observations from a re-analysis of the deposited data

How the results depend on the processing

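Th kept its call under all 16 alternatives (log2 difference 3.27 to 3.90, adjusted p of 0.000114 to 0.00647), and Nr4a2 probe set 1450749_a_at kept its call in the 14 that could test it. The count of higher probe sets was 5 in the main fit and 2 at a threshold of 0.01, 2 with the probe set of largest variance per gene and 2 with the mean of probe sets, where each gene counts once. The count of lower probe sets was 1 in the main fit, 0 with array weights, 0 at 0.01, and 2 after quantile normalization, at a threshold of 0.10 and with the probe set of largest variance per gene, Slc18a2 being the addition. Without 1 sample each, the counts ranged from 2 to 5 higher and 0 to 1 lower. Genes of the surrounding lists numbered 19 higher and 28 lower of 140, and 12 were higher at 0.01. The contrast of Th against Nr4a2 was 1.67, and 2.42 on the mean of probe sets. Whether samples with the same replicate number form pairs is not settled by these arrays. Deviations of same-numbered samples correlated at 0.0096, 0.125 and 0.114, and those of differently numbered samples at -0.149 to 0.0274. Replicate 1 did not match its own number best. With the replicate block there were again 5 higher and 1 lower probe sets, but the lower one was Slc18a2 (adjusted p = 0.0273) in place of Ddc (0.0736), as it was on the mean of probe sets (Slc18a2 0.0378, Ddc 0.115). Signs turned only in probe sets that did not pass. Gch1 1420499_at was 0.18 on the mean of probe sets. Without 1 sample it ranged from -0.33 to 0.19, Ret 1421359_at from -0.057 to 0.24, and Satb1 1416008_at, 1436182_at, 1439315_at and 1439449_at from -0.099 to 0.031, -0.19 to 0.080, -0.28 to 0.0095 and -0.20 to 0.10. The causes were not tested. Signal over background is unknown here, so a flat probe set bounds the measured ratio and not the change of the transcript.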
